A study of Mus musculus with 6 samples.

Results

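Py2T is an epithelial line grown from a mammary tumour of a transgenic mouse. I60 is the derivative of it that was dosed daily with 60 µM H2O2 over 4 months, and its 2 libraries were compared here with 2 libraries of control Py2T cells. The control is labelled PBS with 0 µM H2O2, and the treatment protocol calls it untreated. The series also holds C40, 2 libraries of Py2T cells given 40 µM H2O2 daily over the same 4 months, so the comparison uses 4 of 6 samples. C40 enters below as a reference for single genes and for the spread between libraries. Of 24454 genes in the deposited table, 11524 reached at least 1 CPM (reads of a gene scaled by the library's total) in at least 2 of the 6 libraries and were tested. The submitters describe biological duplicates without saying whether they were kept apart during treatment, so p-values measure only the spread between these libraries. Each line is 1 treated population, so a difference that arose between the lines without H2O2 cannot be told apart from an effect of the treatment.

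H2O2 is a small oxidant that crosses membranes and reacts with thiols of proteins. Cells remove it with catalase, peroxiredoxins and glutathione peroxidases. The peroxiredoxins and glutathione peroxidases draw their electrons from thioredoxin, glutathione and NADPH. Mammary epithelial cells hold their shape through cadherin junctions, tight junctions and sorted vesicle traffic, and these programmes are kept by epithelial transcription factors and the splicing factor Esrp1. When such cells turn mesenchymal, E-cadherin, claudins and cytokeratins go down and vimentin, N-cadherin and collagens go up. The sections below put weight on genes that went to a few reads, genes that came up from none, and processes beyond those standard markers.

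The libraries held 48113692 to 60260520 recovered reads, which makes 1 read worth 0.0166 to 0.0208 CPM. Of the tested genes, 223 differed by more than 2-fold between the PBS libraries, 217 between the I60 libraries and 1022 between the C40 libraries. Keratins and other markers of the labelled cell type gave mixed values. Krt8 and Krt18, the keratin pair of simple epithelia, stayed abundant, with 1264 and 1164 CPM in PBS and 1707 and 1574 in I60 for Krt8 and 1382 and 1697 CPM in PBS and 1443 and 1513 in I60 for Krt18. Neither was called (adjusted p = 0.187 and 0.855). Of 16 luminal markers 7 were tested, with 3 lower (Krt7, Cd24a and Gata3) and none higher at an adjusted p below 0.05 in limma, against 13.1% lower and 13.9% higher over all genes tested. The summed level of the list was 6042 and 6136 CPM in PBS and 3221 and 3162 in I60. Without I60 replicate 1, and likewise without PBS replicate 2, Gata3 was not called. Of 10 basal markers 3 were tested, with 2 lower and 1 higher, and their summed level was 1979 and 1053 CPM in PBS and 257 and 243 in I60. Basal keratin Krt14 had 1426 and 692 CPM in PBS and 23.8 and 13.3 in I60; the calls of Itga6 (lower) and Krt15 (higher) were each lost in at least 1 fit without a library, and 1 fall was called without I60 replicate 1, I60 replicate 2 or PBS replicate 1. Milk genes Csn2 and Wap were at 0 in all 4 libraries. Of 12 fibroblast markers 7 were tested and 5 were higher. However, 5 of the 7 did not reach 1 CPM in both PBS libraries and needed the treated lines to pass the filter. This count is therefore only a description. Among the 5 higher ones was the receptor Pdgfrb at 0.210 and 0.0830 CPM in PBS and 33.9 and 50.7 in I60; Lum, Fap and Thy1 were at 0 in all 4 libraries. Without I60 replicate 2, and likewise without PBS replicate 2, 3 of these 5 calls were made. Immune markers Cd3e, Ms4a1, Adgre1 and Nkg7 and the endothelial markers Emcn and Cldn5 were at 0, and no endothelial or adipocyte marker passed the filter. Of 11 immune markers 2 did: Cd68, a lysosomal protein typical of macrophages, rose from 4.29 and 4.99 to 16.2 and 27.98 CPM (log2 fold change 2.09, SE 0.31, adjusted p = 0.00292), and Csf1r had 15.7 and 16.3 CPM in PBS and 14.5 and 11.3 in I60 and was not called. The summed level of the immune list was 20.6 and 21.5 CPM in PBS and 31.1 and 39.5 in I60, and its part in the results was not tested. The summed level of the 12 fibroblast markers was 747 and 743 CPM in PBS and 1610.0 and 1557 in I60. In RNA from a whole culture, fewer cells of a kind and less RNA per cell cannot be told apart.

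I60 differed from PBS over a large share of the transcriptome. With limma on log2(CPM + 0.5), 1607 genes were higher and 1515 lower at an adjusted p below 0.05, which is 27.1% of the genes tested (13.9% higher, 13.1% lower). The change was at least 2-fold in 1133 of the higher and 1071 of the lower genes, and at least 8-fold in 260 and 271. The median difference over all tested genes was -0.002. In the scatter of group means, the called genes at low PBS or low I60 levels form bands along both axes. The counts depended on having both libraries: with PBS replicate 1 left out 771 genes were higher and 740 lower, and with PBS replicate 2 left out 855 and 896. Leaving out I60 replicate 1 gave 940 and 823, and I60 replicate 2 gave 756 and 815. In these fits 1 arm has 1 sample, which is assumed to vary like the other groups. In every fit that left out 1 library, 670 genes were higher and 664 lower. I60 and C40 differed in 9.23% of the genes tested.

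**Figure D1:**
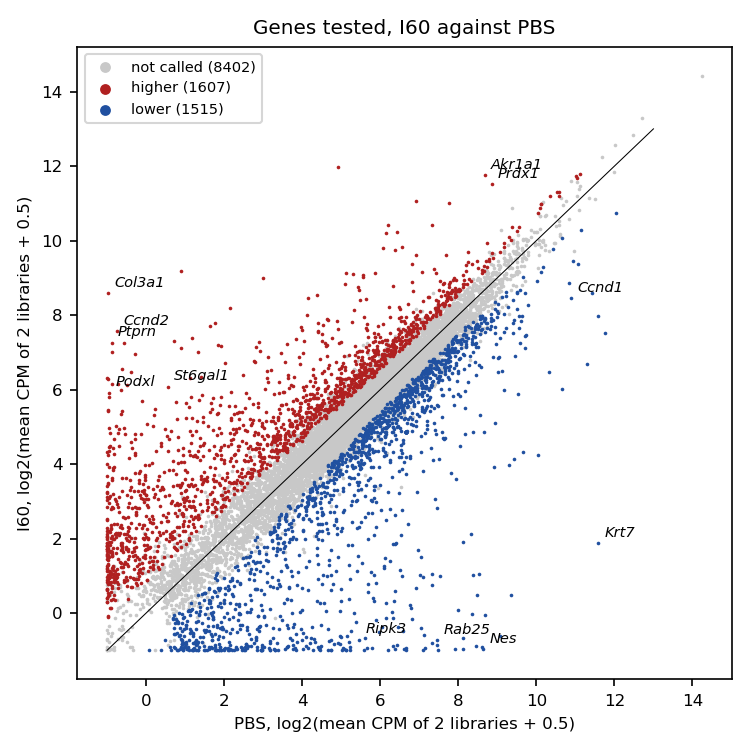
Mean level of each of the 11524 tested genes in PBS (x axis) and I60 (y axis), as log2 of the mean CPM of 2 libraries plus 0.5; red marks the 1607 genes called higher, blue the 1515 called lower, and the line marks equality. The dots along the left edge had almost no reads in PBS and those along the bottom edge almost none in I60.

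A set of 147 genes was silenced in I60. They had at least 1 CPM in each PBS library and at most 5 reads in each I60 library, and since these values chose them they are described without a test. Their median PBS level was 5.54 CPM and 51 of them had at least 10 CPM in PBS. In I60, 57 had 0 reads in both libraries, 50 had 1 to 3 reads in the 2 libraries together and 40 had more. Among the 12 most abundant were junction proteins and surface proteins of epithelia. In C40, 36 of the 147 also had at most 5 reads in each library, 53 still had at least 1 CPM in each, and 58 lay between. At the threshold of 5 reads lay Artn, Pparg, Prom2 and Myo5c, and just outside it, with 6 reads in an I60 library, lay Crb3, Enpp1 and Ifnlr1.

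The promoters of 2 silenced genes, chosen after the motif search, are shown because each holds 4 copies of the 6-base E-box CACCTG, or CAGGTG on the other strand, the sequence that ZEB and SNAI repressors bind. They are the 250 bases before the RefSeq gene start in GRCm38.p6, 5′ to 3′ on the gene's own strand, with the E-boxes in capitals. Lsr lies at chr7:30973470-30973719 on the minus strand and Ap1m2 at chr9:21312334-21312583 on the minus strand.
Lsr: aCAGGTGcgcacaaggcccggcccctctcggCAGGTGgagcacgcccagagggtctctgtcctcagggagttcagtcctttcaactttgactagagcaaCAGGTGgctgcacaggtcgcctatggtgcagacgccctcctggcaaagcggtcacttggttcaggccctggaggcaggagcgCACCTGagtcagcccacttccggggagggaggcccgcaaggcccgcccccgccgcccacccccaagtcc
Ap1m2: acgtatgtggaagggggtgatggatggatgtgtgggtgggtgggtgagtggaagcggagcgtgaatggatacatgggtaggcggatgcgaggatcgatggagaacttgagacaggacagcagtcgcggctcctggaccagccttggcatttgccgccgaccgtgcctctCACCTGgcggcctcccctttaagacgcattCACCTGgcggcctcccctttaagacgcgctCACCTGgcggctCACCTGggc
Over the 9215 tested genes with a RefSeq window of 300 bases, 250 before and 50 after the start, 16.8% held this E-box on either strand. A comparison of the silenced and switched-on sets with other genes was void, because only 78.9% and 71.8% of their members had such a window. Of the 12 most abundant silenced genes, Cdcp1 held 2 copies and Cldn3 held 1, while the windows of Nes, Ptprf, Klk7, Prom2 and Cldn7 held none. These matches are letters in a window and were not tested as binding sites.

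Nes, which encodes the intermediate filament nestin, was the most abundant silenced gene, at 413 and 386 CPM in PBS against 0 and 1 reads in I60, a ratio of 42989-fold, 95% interval 7715 to 1698000.0 from the pooled reads (exact, counting error only). Ptprf, a receptor tyrosine phosphatase at cell junctions, had 349 and 437 CPM in PBS and 0 and 4 reads in I60. Klk7, a secreted serine protease that loosens contacts between keratinocytes, had 431 and 266 CPM in PBS and 3 and 2 reads. For all 3 genes C40 lay between the groups, at 17.4 and 16.7 CPM for Nes, 22.6 and 22.7 for Ptprf and 21.5 and 12.7 for Klk7. The tight junction proteins Cldn3 and Cldn7 went the same way. Cldn3 had 180.4 and 375 CPM in PBS and 0 and 1 reads in I60, and Cldn7 96.9 and 173 CPM in PBS and 0 and 0 reads, which is at least 4889-fold lower when 3 pooled I60 reads are taken as the floor. Lsr, which marks the corners where 3 epithelial cells meet, had 151 and 196 CPM in PBS and 3 and 3 reads.

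Esrp1, the splicing regulator of epithelial isoforms, had 217 and 266 CPM in PBS and 0 and 1 reads in I60. Ap1m2, the epithelial subunit of the AP-1 sorting adaptor, had 77.3 and 118 CPM in PBS and 1 and 0 reads. Prom2, a protein of membrane protrusions, Cdcp1, a transmembrane target of Src kinases, and Thbd, the thrombin receptor thrombomodulin, were also among the 12 most abundant, with 3 and 5 reads, 1 and 1 reads and 1 and 1 reads in I60. In each of the 11 plotted, both C40 libraries lay above both I60 libraries and below both PBS libraries, as the plot of single libraries shows.

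**Figure D2:**
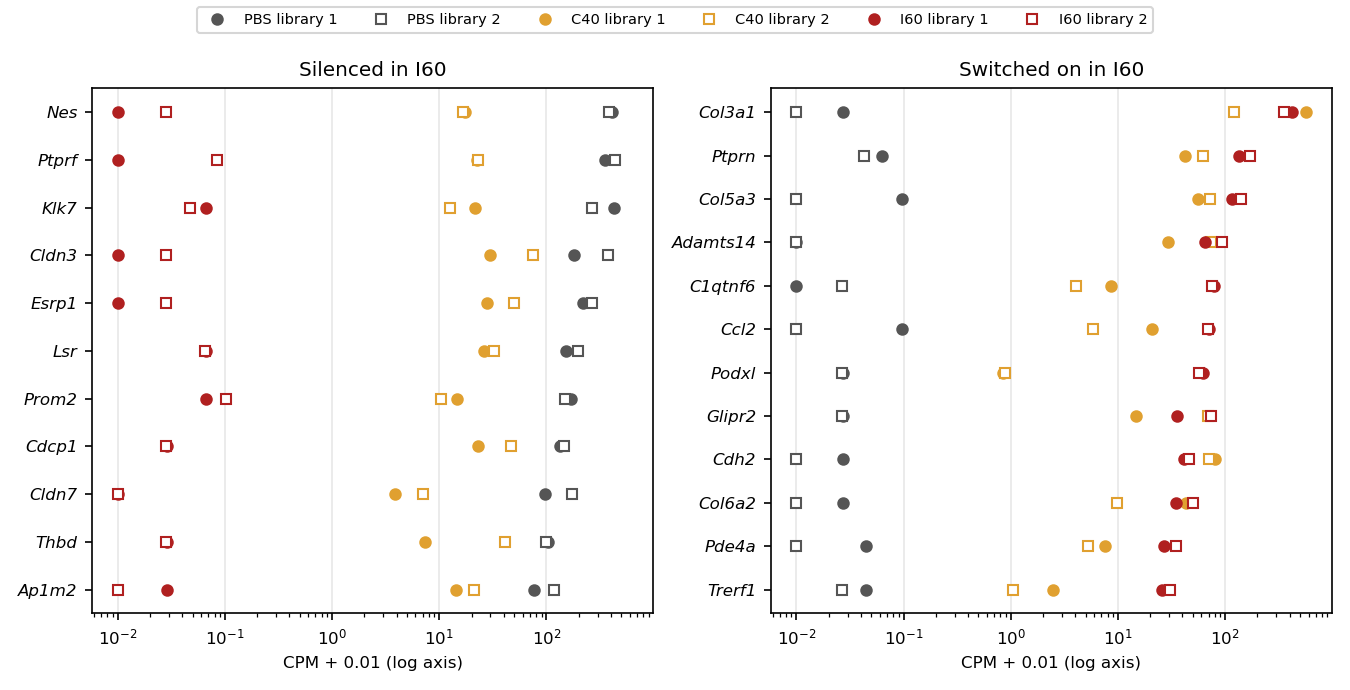
CPM of each library plus 0.01, on a log axis, for 11 of the 12 silenced genes with the highest PBS level (left) and the 12 switched-on genes with the highest I60 level (right); circles are library 1, squares library 2, grey PBS, orange C40, red I60. Points at the far left are libraries with 0 reads, and Podxl in C40 sits near 0.8 while its I60 libraries sit near 60.

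Further silenced genes, chosen for mention after their values were seen, have other roles. Eomes, a T-box transcription factor, had 31.4 and 37.2 CPM in PBS and no read in I60. Sfrp1, a secreted Wnt antagonist, had 35.1 and 33.01 CPM in PBS and no read in any library of either treated line. Igfbp3, which binds insulin-like growth factors, had 111 and 53.2 CPM in PBS and 0 and 1 reads in I60. Marcksl1, an actin-binding substrate of protein kinase C, stood apart from most of the set, since its C40 level was not below PBS: 10.6 and 12.2 CPM in PBS, 16.3 and 14.9 in C40 and 1 and 0 reads in I60. In all, 4 of the 147 genes had a C40 mean above the PBS mean. Ovol1 and Ovol2, zinc finger repressors that maintain the epithelial state, had 26.99 and 22.3 and 4.10 and 4.91 CPM in PBS and no more than 1 read in an I60 library.

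Some silenced genes were neighbours. With gaps of at most 500000 bases, 22 of the 147 fell into 9 runs (positions from the mm10 annotation). One run of 4, chr4:117925908-118544920, held Artn, a ligand of the GDNF family, Ptprf, 2610528J11Rik and Tmem125. Another of 3 on chromosome 7, from 30763756 to 30989726, held Dmkn, Lsr and Fam187b. A further run held the desmosomal cadherins Dsc2, Dsg3 and Dsg2 on chromosome 18. Dsg2 had 30.9 and 33.95 CPM in PBS and 1 and 1 reads in I60.

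A second set of 124 genes was switched on, with at most 5 reads in each PBS library and at least 1 CPM in each I60 library. In PBS, 43 of them had no read in either library, 44 had 1 to 3 reads in all and 37 had more. Their median I60 level was 3.13 CPM, lower than the PBS level of the silenced genes, and 27 had at least 10 CPM. C40 had reached at least 1 CPM in both libraries for 65 of them, and for 32 the C40 mean was above the I60 mean. In 14 the C40 libraries had at most 5 reads each. Ccl2, Col5a3 and Plce1 lay at the threshold of 5 reads in a PBS library, and Ccnd2, Mmp2 and Tent5a just outside it with 6.

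The most abundant switched-on gene was Col3a1, the chain of type III collagen. It had 1 and 0 reads in PBS and 418 and 357 CPM in I60, a ratio of 45430.0-fold, 95% interval 8153 to 1794430.0. Col5a3 had 5 and 0 reads and 115 and 140.5 CPM, and Col6a2 1 and 0 reads and 34.6 and 50.1 CPM. Adamts14, a protease that trims procollagens, had no read in PBS and 64.6 and 93.7 CPM in I60 (at least 3102-fold higher). Cdh2, N-cadherin, had 1 and 0 reads in PBS and 40.98 and 46.02 CPM in I60. For these matrix and cadherin genes the C40 libraries also lay far above PBS: 56.4 and 72.04 CPM for Col5a3 and 81.02 and 71.4 for Cdh2.

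Several abundant switched-on genes have no collagen role. Ptprn, a receptor tyrosine phosphatase-like protein of dense-core vesicles in neuroendocrine cells, had 3 and 2 reads in PBS, 42.5 and 61.9 CPM in C40 and 136 and 169 in I60. Podxl, the sialomucin podocalyxin, had 1 and 1 reads in PBS, 0.831 and 0.865 CPM in C40 and 62.5 and 57.5 in I60; C40 stayed under 1 CPM. The monocyte attractant Ccl2 went from 5 and 0 reads to 71.02 and 68.9 CPM, and its neighbour Ccl7, within chr11:82035577-82047525, from no read to 8.48 and 6.85 CPM. C1qtnf6, a secreted protein with a C1q domain, Glipr2, a Golgi-associated protein, Pde4a, a cyclic AMP phosphodiesterase, and Trerf1, a transcriptional regulator, had 79.6 and 75.5, 35.4 and 74.3, 26.8 and 34.7 and 26.01 and 30.3 CPM in I60 and at most 2 reads in a PBS library.

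Among the 14 genes that were on in I60 and near none in both PBS and C40, Gpc4, a heparan sulphate proteoglycan of the glypican family, had no read in PBS, 0.0208 and 0.0736 CPM in C40 and 11.2 and 13.3 in I60. Nr1h4, the bile acid receptor FXR, had no read in PBS, 0 and 0.0184 CPM in C40 and 5.41 and 7.98 in I60. These 2 were chosen after their values were seen.

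Outside both sets, the largest rises were those of Ccnd2, Serpinh1, Col6a1, Zcchc24, Speg, Vim, Cd34 and Ccn4. Ccnd2, cyclin D2, had 0.0875 and 0.0996 CPM in PBS and 163 and 216 in I60 (log2 fold change 8.31, SE 0.29, adjusted p = 6.85e-06). Serpinh1, the chaperone HSP47 that folds collagen in the endoplasmic reticulum, had 1.12 and 1.59 CPM in PBS and 475 and 692 in I60 (log2 fold change 8.28, SE 0.35, adjusted p = 1.25e-05). Speg, a kinase of striated muscle, had 0.175 and 0.133 CPM in PBS and 86.4 and 99.9 in I60, and Cd34, a sialomucin of progenitor cells related to podocalyxin, 0.158 and 0.0498 CPM in PBS and 70.8 and 70.9 in I60. All of these were picked among genes whose I60 and PBS libraries did not overlap, so their separation was set by the rule. The groups did not overlap in 70.6% of all genes tested.

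Among called genes with at least 5 CPM and no overlap, outside the silenced set, the largest falls were those of Krt7, Cdh1, Klk6, Cpm, S100a14, St14, Rab25 and Epcam. St14, matriptase, a membrane-anchored serine protease of epithelia, had 278 and 375 CPM in PBS and 0.524 and 0.442 in I60 (log2 fold change -8.36, SE 0.23, adjusted p = 5.64e-06). Klk6, a kallikrein protease like the silenced Klk7, had 783 and 522 CPM in PBS and 0.899 and 0.884 in I60 (log2 fold change -8.85, SE 0.25, adjusted p = 5.64e-06), and S100a14, a calcium-binding protein, 422 and 402 CPM in PBS and 0.300 and 0.626 in I60 (log2 fold change -8.76, SE 0.29, adjusted p = 6.06e-06). Cpm, a membrane carboxypeptidase, had 277 and 283 CPM in PBS and 0.112 and 0.147 in I60. By size of the change in CPM, the largest losses also included Nup107, Mdm2 and Rap1b, which lie beside Cpm on chromosome 10. Mdm2, the ubiquitin ligase of p53, had 3500.3 and 2598 CPM in PBS and 242 and 259 in I60, with 202 and 220.3 in C40. The 24 tested genes around Mdm2, 12 on each side, had a median difference of -0.30, and 8 of them were lower.

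The largest gains in CPM were those of Vim, Akr1a1, Prdx1, Tmem59, Usp24 and Flna. Akr1a1, Prdx1, Tmem59 and Usp24 lie on chromosome 4, where neighbouring genes rose too. The 24 tested neighbours of Akr1a1 had a median difference of 2.86 and those of Tmem59 3.27. Flna, the actin crosslinker filamin A, had 2148 and 2266 CPM in PBS and 3267 and 3833 in I60, and its call was lost without any 1 of the 4 libraries (adjusted p = 0.0921 without I60 replicate 1, 0.191 without I60 replicate 2, 0.247 without PBS replicate 1, 0.176 without PBS replicate 2). The loss of Ahnak, a giant scaffold protein at 4653 and 3819 CPM in PBS and 1465 and 1978 in I60, was not called without PBS replicate 1 (adjusted p = 0.0712).

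**Figure D3:**
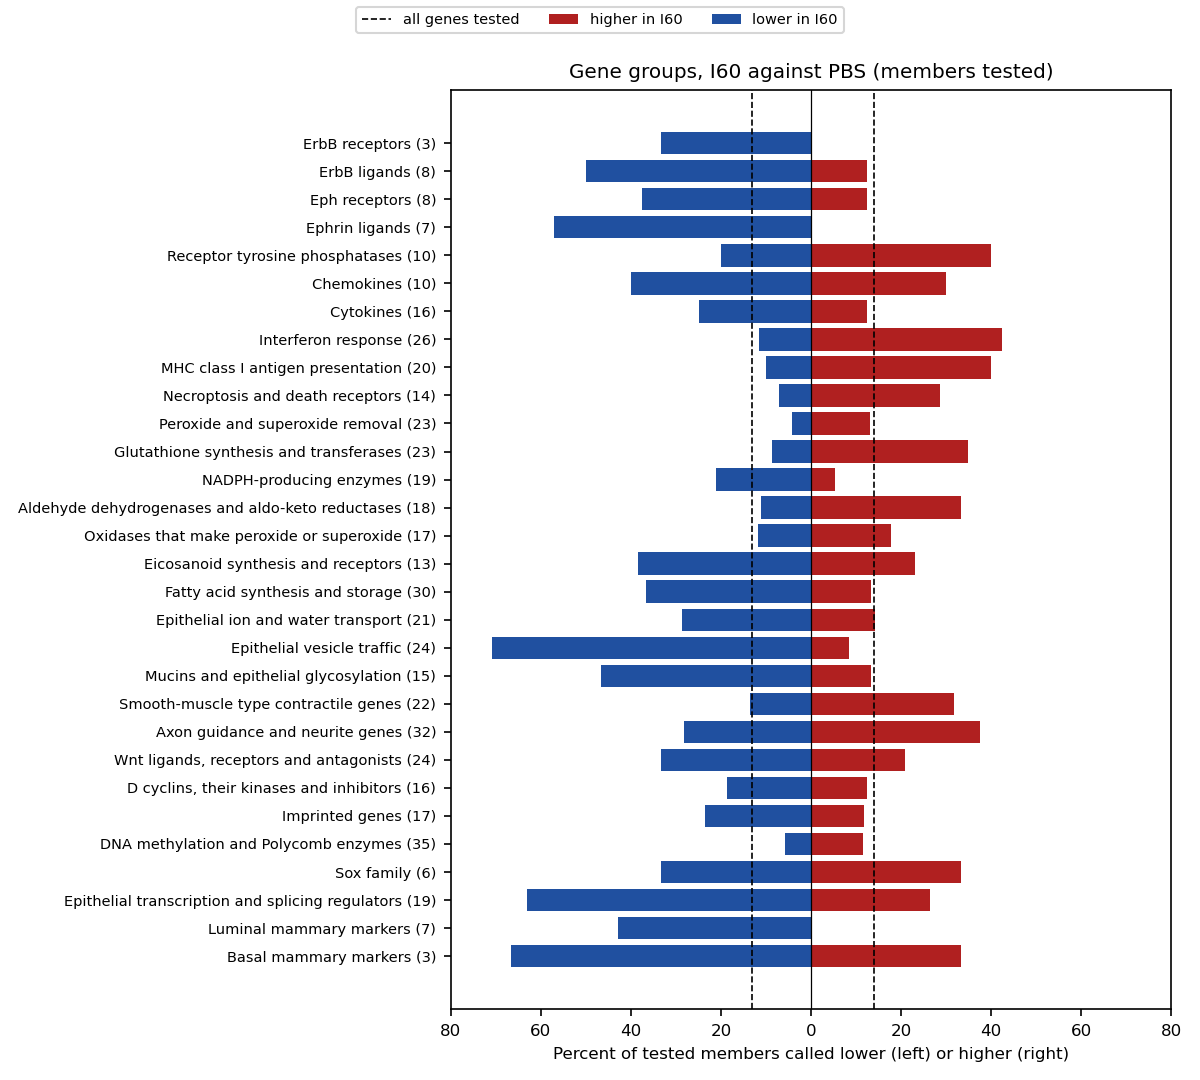
Percent of the tested members of each gene group that were called lower (blue, to the left) or higher (red, to the right) in I60 against PBS, with the number tested in parentheses; dashed lines mark 13.1% lower and 13.9% higher, the shares over all 11524 genes. Groups in which fewer than 50% of the tested members reached 1 CPM in both PBS libraries are not drawn. No such limit was set for I60, so groups with members low in I60 are drawn. Epithelial vesicle traffic reaches furthest to the left of the groups drawn. Of its 24 tested members, 9 did not reach 1 CPM in both I60 libraries, so its place is only a description.

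Vesicle traffic of epithelial cells, which sorts membrane proteins to the apical or basolateral face, had more members called lower than the background. All 24 tested members had at least 1 CPM in both PBS libraries and 15 had it in both I60 libraries, so the counts are only a description. Of the 24, 17 were called lower (70.8%, against 13.1% over all genes tested), 4 of them silenced. Another 2 were called higher (8.33%, against 13.9%), and the median difference was -1.90. Rab25, the recycling GTPase of polarised cells, had 163 and 187 CPM in PBS and 0.131 and 0.0737 in I60 (log2 fold change -8.19, SE 0.26, adjusted p = 5.69e-06). Its motor Myo5b had 19.7 and 30.2 CPM in PBS and 0.169 and 0.313 in I60 and the effector Rab11fip4 19.6 and 17.5 CPM in PBS and 0.262 and 0.295 in I60. Mal, a raft protein of apical transport, had 418 and 227 CPM in PBS and 6.20 and 1.58 in I60 (log2 fold change -6.37, SE 0.56, adjusted p = 2.40e-04); its I60 libraries differed from each other, and its fold change moved by over 1.5 times when 1 of them was left out, to -7.21 without I60 replicate 1 and -5.52 without I60 replicate 2. The tight junction adaptors Cgn and Cgnl1 fell less, by 1.89 and 2.29 on the log2 scale. Ap1m1, the adaptor subunit made in most cells, had 70.4 and 74.5 CPM in PBS and 127 and 115 in I60 (adjusted p = 0.0274), but neither rise in the group was called in fits without 1 PBS or I60 library, where Ap1m1 had adjusted p = 0.147 without I60 replicate 1, 0.101 without I60 replicate 2, 0.163 without PBS replicate 1, 0.11 without PBS replicate 2 and Sytl1 0.0652 without I60 replicate 1, 0.194 without I60 replicate 2, 0.153 without PBS replicate 1, 0.145 without PBS replicate 2.

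The list of epithelial transcription and splicing regulators, which also holds repressors of epithelial genes such as Zeb2, was mostly lower too. Of 19 tested members, 12 were lower (63.2%, against 13.1% over all genes tested) and 5 higher (26.3%, against 13.9%). The median difference was -1.46, over both kinds of regulator together. In both PBS libraries 18 of the 19 had at least 1 CPM, while 7 did not reach it in both I60 libraries, so these counts are only a description. Grhl2, a grainyhead factor that drives junction genes, had 101 and 120.1 CPM in PBS and 0.562 and 0.645 in I60 (log2 fold change -6.65, SE 0.23, adjusted p = 6.21e-06). Esrp2 had 63.2 and 74.3 CPM in PBS and 2.55 and 2.06 in I60, and Rbm47, another RNA-binding protein of epithelia, 33.7 and 39.8 CPM in PBS and 1.24 and 1.53 in I60. The 5 that rose were Zeb1, Zeb2, Snai1, Twist1 and Tfap2a. Zeb2, a repressor of epithelial genes, had 2.56 and 1.28 CPM in PBS and 20.3 and 37.7 in I60 (log2 fold change 3.60, SE 0.46, adjusted p = 0.00153), and Twist1, another such regulator, 3.66 and 3.97 CPM in PBS and 21.2 and 22.3 in I60 (log2 fold change 2.37, SE 0.27, adjusted p = 7.96e-04). Without 1 PBS or I60 library 3 of the 5 rises were called.

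Genes of ion transport and glycosylation at the epithelial surface were called lower more often than the background of 13.1%, and higher at shares near 13.9%. Of 21 tested ion and water transport genes 6 were lower and 3 higher, with a median difference of -0.32. The potassium channel Kcnk1 fell from 111 and 137 to 3.05 and 2.39 CPM (log2 fold change -5.27, SE 0.23, adjusted p = 1.47e-05) and the water channel Aqp5 from 515 and 517 to 101 and 75.9 CPM (log2 fold change -2.56, SE 0.33, adjusted p = 0.00146). The related channel Kcnk5 rose, with 13.5 and 12.8 CPM in PBS and 43.6 and 39.00 in I60 (log2 fold change 1.61, SE 0.20, adjusted p = 0.00119). Of 15 tested mucin and glycosylation genes 7 were lower and 2 higher, with a median difference of -0.93. Galnt3, which starts O-linked chains, had 59.4 and 54.9 CPM in PBS and 3.41 and 4.09 in I60, and the fucosyltransferase Fut2 6.98 and 4.31 CPM in PBS and 0.0562 and 0.0368 in I60. St6gal1, which caps N-glycans with sialic acid, went the other way, at 0.648 and 1.29 CPM in PBS and 49.97 and 84.5 in I60 (log2 fold change 5.51, SE 0.33, adjusted p = 4.66e-05). St3gal6, a sialyltransferase of another linkage, had 25.2 and 19.8 CPM in PBS and 1.69 and 1.36 in I60 (log2 fold change -3.50, SE 0.25, adjusted p = 9.89e-05). Without PBS replicate 1, 1 of the 2 rises was called.

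Growth factor receptors and their ligands differed unevenly. Of the 4 ErbB receptors, Erbb3, the partner without its own strong kinase activity, fell from 69.3 and 114 to 2.49 and 5.08 CPM (log2 fold change -4.45, SE 0.38, adjusted p = 2.26e-04). Egfr at 38.9 and 35.9 CPM in PBS and 31.97 and 38.2 in I60 and Erbb2 at 114 and 147 CPM in PBS and 85.6 and 71.3 in I60 were not called. Among 8 tested ErbB ligands 4 were lower (50%, against 13.1% over all genes tested) and 1 higher (12.5%, near 13.9%), with a median difference of -1.23. Btc, betacellulin, had 11.5 and 3.83 CPM in PBS and 0.412 and 0.497 in I60 (log2 fold change -2.92, SE 0.45, adjusted p = 0.00348), with a log2 fold change of -2.18 without PBS replicate 1 and -3.65 without PBS replicate 2. It was the 1 ligand called in every fit without 1 library, and without I60 replicate 2 the 1 fall called.

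In the Eph family, whose receptors and ephrin ligands signal at cell contacts, 3 of 8 tested receptors and 4 of 7 ligands were lower. These are 37.5% and 57.1%, against 13.1% over all genes tested. Epha1 fell from 59.7 and 72.1 to 0.300 and 0.239 CPM (log2 fold change -6.43, SE 0.23, adjusted p = 8.23e-06), while Ephb2 rose from 10.4 and 13.3 to 71.99 and 95.6 (log2 fold change 2.77, SE 0.23, adjusted p = 1.77e-04). The ligand Efnb2 had 86.8 and 80.6 CPM in PBS and 30.7 and 37.5 in I60 (log2 fold change -1.29, SE 0.21, adjusted p = 0.00403). Without PBS replicate 1, 2 of the 4 ligand falls were called. In the fits without 1 PBS or I60 library, the least number of receptor falls called was 2.

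Receptor tyrosine phosphatases moved both ways. Of 10 tested, 4 were higher (40%, against 13.9% over all genes tested) and 2 lower (20%, against 13.1%), with a median difference of 0.25. Of the 10, 3 did not reach 1 CPM in both PBS libraries and 1 did not in both I60 libraries. These counts are therefore only a description. Next to the silenced Ptprf and the switched-on Ptprn, Ptprg had 5.95 and 5.74 CPM in PBS and 32.5 and 40.3 in I60 (log2 fold change 2.53, SE 0.21, adjusted p = 2.02e-04) and Ptprv 0.473 and 0.332 CPM in PBS and 7.62 and 9.49 in I60 (log2 fold change 3.32, SE 0.46, adjusted p = 0.00219). Ptprs, a relative of Ptprf, had 445 and 475 CPM in PBS and 198 and 219 in I60 (log2 fold change -1.14, SE 0.15, adjusted p = 0.00177). Ptpra, Ptpre, Ptprj and Ptprk were not called.

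Genes of axon guidance, many of which also act in epithelia and vessels, moved in both directions. Of 32 tested, 12 were higher (37.5%, against 13.9% over all genes tested) and 9 lower (28.1%, against 13.1%), with a median difference of 0.60. All 32 reached 1 CPM in both I60 libraries but 6 did not in both PBS libraries, so the counts and the median are only a description. Plexin receptors for semaphorins split: Plxnb1 fell from 117 and 139.6 to 1.39 and 1.69 CPM (log2 fold change -5.98, SE 0.22, adjusted p = 8.63e-06) and Plxnd1 rose from 1.59 and 1.74 to 58.1 and 101 (log2 fold change 5.15, SE 0.29, adjusted p = 3.46e-05). The adhesion molecules split as well, with L1cam at 63.1 and 51.1 CPM in PBS and 1.93 and 1.11 in I60 (log2 fold change -4.86, SE 0.27, adjusted p = 3.21e-05) and Ncam1 at 1.30 and 1.24 CPM in PBS and 10.9 and 20.96 in I60 (log2 fold change 3.15, SE 0.39, adjusted p = 0.00117). Dpysl3, a semaphorin effector, had 0.123 and 0.0498 CPM in PBS and 6.14 and 8.99 in I60, far under its 151 and 213 CPM in C40; the difference between the lines was -4.50, SE 0.29, adjusted p = 2.81e-04. Without PBS replicate 2, 6 rises were called, and without PBS replicate 1, 5 falls.

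For Wnt signalling 5 of 24 tested ligands, receptors and antagonists were higher and 8 lower (median difference -0.22). These are 20.8% and 33.3%, against 13.9% and 13.1% over all genes tested. Among the ligands, Wnt7a had 166 and 156 CPM in PBS and 2.08 and 0.313 in I60 and Wnt7b 501 and 566 CPM in PBS and 168 and 164 in I60 (log2 fold change -1.68, SE 0.17, adjusted p = 4.52e-04), while Wnt3 came up from no read to 1.48 and 3.54 CPM. Wnt7a fell in every fit (log2 fold change -6.80), with a value of -7.63 without I60 replicate 1 and -5.97 without I60 replicate 2. The receptor Fzd1 had 0.403 and 0.332 CPM in PBS and 8.41 and 9.97 in I60 (log2 fold change 3.48, SE 0.47, adjusted p = 0.00197) and Fzd9 4.01 and 2.11 CPM in PBS and 0.187 and 0.0368 in I60 (log2 fold change -2.50, SE 0.32, adjusted p = 0.00141). With PBS replicate 1 left out, 2 rises and 5 falls were called.

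Few genes that remove H2O2 were called. Of 23 tested genes for peroxide and superoxide removal 3 were higher and 1 lower, near or below the background shares of 13.9% and 13.1%, and the median difference was -0.03. Catalase had 50.9 and 49.4 CPM in PBS and 47.8 and 52.3 in I60, with a difference of 0.00 and an SE of 0.26. Glutathione peroxidase Gpx1 (199 and 138 CPM in PBS and 156 and 104 in I60), thioredoxin reductase Txnrd1 (542 and 461 CPM in PBS and 421 and 359.9 in I60) and sulfiredoxin Srxn1 (122 and 89.05 CPM in PBS and 88.4 and 64.8 in I60) were not called. The 1 fall was that of Prdx6, a peroxiredoxin that also acts on oxidised phospholipids, at 597 and 637 CPM in PBS and 307 and 286 in I60 (log2 fold change -1.06, SE 0.15, adjusted p = 0.00223), and it was called in every fit without 1 library. Prdx1 rose, at 483 and 441 CPM in PBS and 2909 and 2967 in I60 (log2 fold change 2.67, SE 0.31, adjusted p = 9.67e-04), but 19 of its 24 nearest tested neighbours on chromosome 4 rose too, with a median of 2.86. Gpx8, a peroxidase of the endoplasmic reticulum, and mitochondrial Prdx3 were higher by 1.92 and 0.83. Gpx8 was not called without I60 replicate 2 (adjusted p = 0.0528) or PBS replicate 2 (0.0510), nor Prdx3 without I60 replicate 1 (0.0727) or PBS replicate 2 (0.0789).

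**Figure D4:**
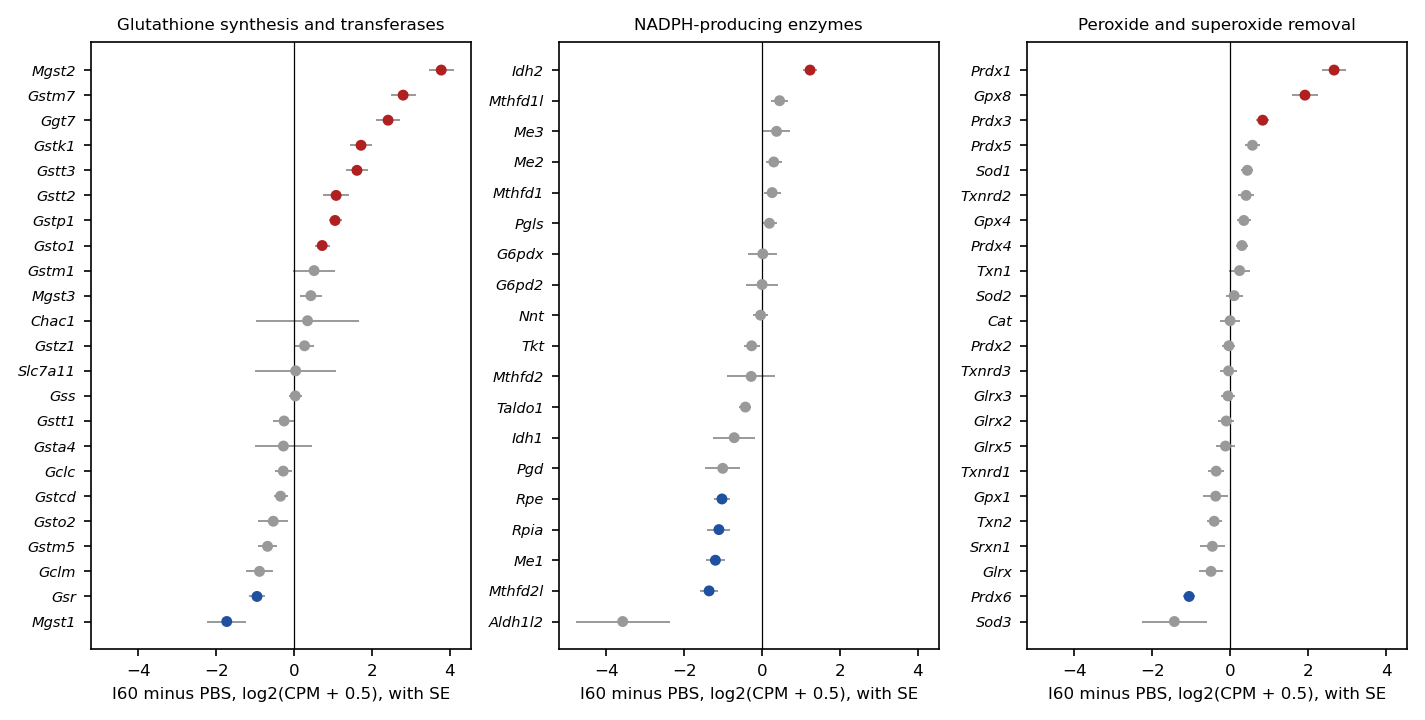
Difference between I60 and PBS in log2(CPM + 0.5), with the standard error from limma as bars, for each tested gene of glutathione synthesis and transfer (left), NADPH supply (middle) and peroxide removal (right); red was called higher, blue lower, grey not called. Catalase (Cat) sits at 0 and Prdx1, Gpx8 and Prdx3 are the 3 red points of the right panel.

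Glutathione transferases couple glutathione to electrophiles. In the list of glutathione synthesis and transfer genes 8 of 23 tested genes were higher and 2 lower, with a median difference of 0.27. The shares were 34.8% and 8.7%, against 13.9% and 13.1% over all genes tested. Mgst2, a membrane-bound transferase, had 1.98 and 1.38 CPM in PBS and 25.6 and 33.03 in I60 (log2 fold change 3.78, SE 0.32, adjusted p = 2.03e-04), with 25.2 and 15.4 in C40. Gstm7 had 0.0875 and 0.116 CPM in PBS and 2.58 and 5.195 in I60 (log2 fold change 2.80, SE 0.32, adjusted p = 8.48e-04) and 0.104 and 0.0552 CPM in C40, so that I60 was also above C40 (log2 difference 2.86, SE 0.32, adjusted p = 0.00211). Members of this family are close in sequence, and the authors' treatment of shared reads was not stated. Ggt7 of the gamma-glutamyltransferase family went from 2 and 4 reads to 2.02 and 2.91 CPM. The enzymes that make glutathione were not called: Gclc had 91.8 and 73.6 CPM in PBS and 76.2 and 60.1 in I60, Gclm 86.8 and 71.6 CPM in PBS and 55.04 and 32.6 in I60 and Gss 72.5 and 71.5 CPM in PBS and 79.3 and 68.2 in I60. The cystine transporter Slc7a11 and Chac1, which degrades glutathione, differed so much between libraries (Chac1 26.9 and 83.3 CPM in PBS and 23.1 and 157 in I60) that no difference was detectable. Without I60 replicate 2, and without PBS replicate 1, 5 of the 8 rises were called, and neither fall was called in any fit without 1 PBS or I60 library.

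Of 19 tested NADPH-producing enzymes 4 were lower (21.1% against 13.1% of all genes) and 1 higher (median difference -0.27). The rise was that of mitochondrial Idh2, at 140.0 and 163 CPM in PBS and 321 and 393 in I60 (log2 fold change 1.23, SE 0.17, adjusted p = 0.00238). None of the 4 falls held in every fit without 1 library, and without PBS replicate 1 none was called. G6pdx, which opens the pentose phosphate pathway, had 324 and 309 CPM in PBS and 372 and 276 in I60 and was not called.

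Aldehyde and carbonyl-removing enzymes rose in part, with 6 of 18 higher and 2 lower (median difference 0.16). Their shares were 33.3% and 11.1%, against 13.9% and 13.1% over all genes tested. Aldh3b1, an oxidoreductase of lipid aldehydes, had 2.56 and 2.64 CPM in PBS and 37.8 and 44.9 in I60 (log2 fold change 3.75, SE 0.28, adjusted p = 1.27e-04), and Aldh2 139.6 and 161 CPM in PBS and 327 and 384 in I60 (log2 fold change 1.24, SE 0.16, adjusted p = 0.00169). Akr1a1, aldehyde reductase, had 383 and 432 CPM in PBS and 3362 and 3580.2 in I60 (log2 fold change 3.09, SE 0.16, adjusted p = 2.50e-05) within the raised stretch of chromosome 4. Aldh5a1 and Aldh7a1 fell, at 13.1 and 14.9 CPM in PBS and 2.92 and 3.998 in I60 for the first and 67.4 and 74.1 CPM in PBS and 24.8 and 32.3 in I60 for the other. Of 17 tested oxidases that make peroxide or superoxide, 3 were higher and 2 lower, with a median difference of 0.17. These shares, 17.6% and 11.8%, were near the 13.9% and 13.1% over all genes tested. Aox1, aldehyde oxidase, had 1.61 and 1.41 CPM in PBS and 9.68 and 18.1 in I60 (log2 fold change 2.78, SE 0.44, adjusted p = 0.00368), Qsox1, which forms disulfides in secreted proteins, 31.1 and 31.5 CPM in PBS and 63.7 and 79.3 in I60 (log2 fold change 1.17, SE 0.19, adjusted p = 0.00385), and Acox2, a peroxisomal acyl-CoA oxidase, 19.95 and 24.3 CPM in PBS and 0.581 and 1.88 in I60 (log2 fold change -3.81, SE 0.44, adjusted p = 9.01e-04). Nox4, a peroxide-producing NADPH oxidase, had 0.123 and 0.0830 CPM in PBS and 0.0562 and 0.184 in I60 and was not called. Without I60 replicate 1, I60 replicate 2 or PBS replicate 1, 1 of the 2 falls was called, that of Acox2.

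Genes of fatty acid synthesis and storage were called lower more often than the 13.1% over all genes tested. Of 30 tested, 11 were lower (36.7%) and 4 higher (13.3%, near the 13.9% over all genes tested), with a median difference of -0.41. Fads2, the delta-6 desaturase that starts long polyunsaturated fatty acids, fell from 120.3 and 197 to 1.67 and 1.46 CPM (log2 fold change -6.23, SE 0.40, adjusted p = 5.67e-05), below its 77.7 and 36.5 CPM in C40 (log2 difference -4.71, SE 0.40, adjusted p = 6.51e-04). Lpin3, a phosphatidate phosphatase, had 23.9 and 30.5 CPM in PBS and 1.07 and 1.40 in I60 (log2 fold change -3.99, SE 0.29, adjusted p = 1.08e-04). Pparg, the fat cell regulator, was silenced, at 9.70 and 7.52 CPM in PBS against 5 and 5 reads. Without PBS replicate 2, 4 of the 11 falls were called, and without I60 replicate 1 or PBS replicate 1 none of the 4 rises.

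In eicosanoid synthesis, which turns arachidonic acid into prostaglandins and leukotrienes, 5 of 13 tested genes were lower and 3 higher (median difference -0.36). These are 38.5% and 23.1%, against 13.1% and 13.9% over all genes tested. The phospholipase Pla2g4a, which frees arachidonic acid, fell from 132 and 84.8 to 15.2 and 19.99 CPM (log2 fold change -2.57, SE 0.26, adjusted p = 5.04e-04), and the cyclooxygenase Ptgs1 from 409 and 315 to 141 and 139 (log2 fold change -1.35, SE 0.19, adjusted p = 0.00205). Ptges, the terminal synthase of prostaglandin E2, rose from 0.595 and 0.680 to 8.99 and 10.1 (log2 fold change 3.14, SE 0.26, adjusted p = 2.04e-04), and Ptger4, a receptor for it, fell from 4.73 and 2.69 to 0.449 and 0.553 (log2 fold change -2.03, SE 0.32, adjusted p = 0.00365). Without 1 PBS or I60 library, 3 falls were still called, and without I60 replicate 1 or PBS replicate 2, 1 rise.

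Cgas, the sensor of cytosolic DNA, was silenced: 37.5 and 28.2 CPM in PBS, 8.58 and 8.44 in C40 and 1 and 0 reads in I60. Parp12, an interferon-induced ADP-ribosyltransferase, had 18.2 and 17.7 CPM in PBS and 4 and 4 reads, Nmi, a partner of STAT proteins, 2.42 and 2.27 CPM in PBS and no read, and Nlrx1, a mitochondrial NLR protein, 1.03 and 1.08 CPM in PBS and no read. These 4 silenced genes were chosen after their values were seen and belong to none of the lists.

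Of 26 tested interferon-response genes 11 were higher (42.3%, against 13.9% over all genes tested) and 3 lower (11.5%, near 13.1%), with a median difference of 0.40. Irf8, an interferon regulatory factor best known from myeloid cells, had 1.12 and 2.67 CPM in PBS and 14.2 and 22.8 in I60 (log2 fold change 3.03, SE 0.39, adjusted p = 0.00142), the receptor chain Ifnar2 5.25 and 5.82 CPM in PBS and 26.7 and 31.5 in I60 (log2 fold change 2.29, SE 0.26, adjusted p = 7.76e-04), and the GTPase Gbp2 2.43 and 2.09 CPM in PBS and 16.9 and 28.2 in I60 (log2 fold change 3.02, SE 0.43, adjusted p = 0.00252). Bst2, tetherin, fell from 10.05 and 12.2 to 2.66 and 3.10 CPM (log2 fold change -1.78, SE 0.27, adjusted p = 0.00316). Classical induced genes such as Ifit1, Ifit3, Isg15, Mx1 and Rsad2 stayed under the filter, with Isg15 at 0.455 and 0.514 CPM in PBS and 0.150 and 0.221 in I60. Without I60 replicate 2, 5 of the 11 rises were called.

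In the MHC class I pathway, which shows peptides to T cells, 8 of 20 tested genes were higher and 2 lower (median difference 0.38). The shares were 40% and 10%, against 13.9% and 13.1% over all genes tested. The 2 falls were heavy chains: H2-K1 had 115 and 149.7 CPM in PBS and 18.04 and 20.8 in I60 (log2 fold change -2.73, SE 0.25, adjusted p = 3.11e-04) and H2-T23 7.46 and 7.82 CPM in PBS and 0.861 and 0.976 in I60 (log2 fold change -2.52, SE 0.24, adjusted p = 3.27e-04). H2-K1 was above I60 in C40 too, at 81.6 and 124 CPM (log2 difference -2.35, SE 0.25, adjusted p = 0.00172). Heavy-chain genes are near-identical in places, so reads may be shared among them. The proteasome activator subunits Psme1 and Psme2 rose, at 22.03 and 25.2 CPM in PBS and 55.5 and 71.8 in I60 and 15.5 and 14.5 CPM in PBS and 42.5 and 48.9 in I60, and Nlrc5, the transactivator of class I genes, went from 3 and 1 reads to 2.73 and 4.33 CPM. B2m, the shared light chain, had 95.1 and 103 CPM in PBS and 91.7 and 127 in I60 and was not called. Without I60 replicate 1 or 2, 3 of the 8 rises were called.

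Secreted signals to leukocytes also moved both ways. Among 10 tested chemokines 3 were higher (30%, against 13.9% over all genes tested), Ccl2 and Ccl7 among them, and 4 lower (40%, against 13.1%). Cxcl16 fell from 177 and 213 to 21.5 and 29.9 CPM (log2 fold change -2.91, SE 0.29, adjusted p = 4.69e-04) and Ccl6 from 1.77 and 1.18 to 0.206 and 0.0921 (log2 fold change -1.59, SE 0.25, adjusted p = 0.00382). Of 16 tested cytokines 2 were higher (12.5%, near the 13.9% over all genes tested) and 4 lower (25%, against 13.1%), with a median difference of -0.96. Of the 16, 6 did not reach 1 CPM in both PBS libraries and 4 did not in both I60 libraries. Il18 had 0.945 and 0.597 CPM in PBS and 7.15 and 11.5 in I60 (log2 fold change 2.93, SE 0.31, adjusted p = 6.18e-04), Csf3 25.01 and 23.3 CPM in PBS and 4.66 and 3.98 in I60 (log2 fold change -2.36, SE 0.24, adjusted p = 5.52e-04) and Il17d 3.27 and 3.09 CPM in PBS and 0.225 and 0.0737 in I60 (log2 fold change -2.51, SE 0.23, adjusted p = 3.22e-04). Without 1 PBS or I60 library, 1 cytokine rise was called, and without I60 replicate 1, 2 falls.

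Ripk3, the kinase that triggers necroptosis, fell from 50.2 and 37.1 to 0.0375 and 0.184 CPM (log2 fold change -6.17, SE 0.27, adjusted p = 1.32e-05), with 0.104 and 0.0736 CPM in C40. Its substrate Mlkl had 59.2 and 64.1 CPM in PBS and 92.5 and 97.7 in I60. The death receptor Fas rose from 0.473 and 0.166 to 5.81 and 7.72 CPM (log2 fold change 3.16, SE 0.37, adjusted p = 9.04e-04). In the list of necroptosis and death receptor genes 28.6% were higher and 7.14% lower, against 13.9% and 13.1% over all genes tested. Of 14 tested, 4 were higher and 1 lower (median difference 0.33), and Fas was the 1 rise called in every fit without 1 library. For Mlkl the adjusted p of 0.0267 became 0.101 without I60 replicate 1, 0.142 without I60 replicate 2, 0.171 without PBS replicate 1, 0.0983 without PBS replicate 2 in those fits.

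D-type cyclins, which start the cell cycle with Cdk4 and Cdk6, moved in opposite directions. Ccnd1 fell from 1811 and 2009 to 397 and 300.2 CPM (log2 fold change -2.46, SE 0.27, adjusted p = 7.02e-04) while Ccnd2 rose as given above, and Ccnd3 had 86.3 and 86.5 CPM in PBS and 129 and 76.4 in I60 (adjusted p = 0.741). Of 16 tested genes of this group 2 (12.5%) were higher and 3 (18.8%) lower, not far from the 13.9% and 13.1% over all genes tested. Of these calls, those for Ccnd1 and Ccnd2 were the 2 made in every fit without 1 library.

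Contractile genes rose in part, with 7 of 22 tested higher and 3 lower (median difference 0.32). Their shares were 31.8% and 13.6%, against 13.9% and 13.1% over all genes tested. Mylk, myosin light chain kinase, had 0.315 and 0.199 CPM in PBS and 6.99 and 11.9 in I60 (log2 fold change 3.67, SE 0.32, adjusted p = 2.36e-04) and Csrp1, a LIM protein of actin bundles, 68.8 and 64.8 CPM in PBS and 213 and 224 in I60 (log2 fold change 1.70, SE 0.22, adjusted p = 0.00137). Myh10, a nonmuscle myosin heavy chain, fell from 126 and 144 to 13.97 and 13.2 CPM (log2 fold change -3.27, SE 0.19, adjusted p = 3.38e-05). Acta2, the smooth muscle actin of myofibroblasts, stayed under the filter at 0 and 0.0166 CPM in PBS and 0.0375 and 0.0553 in I60. Without 1 PBS or I60 library, 2 rises and 1 fall were called.

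Hox genes, which set position along the body axis, were mostly near 0 in PBS. Of 39 Hox genes 14 were tested. Of these, 10 did not reach 1 CPM in both PBS libraries and needed the treated lines to pass the filter. No count of calls is therefore given for the Hox genes. Hoxc6, Hoxc9 and Hoxc13, neighbours at chr15:102921131-103011882, had no read in PBS and 3.20 and 4.11, 2.996 and 3.02 and 3.22 and 2.10 CPM in I60. C40 had raised them too, to 1.95 and 1.34, 0.624 and 0.442 and 2.24 and 1.12 CPM. Hoxb6 also had no read in PBS, with 5.03 and 2.74 CPM in C40 and 2.87 and 3.13 in I60. C40 had raised genes that I60 left near none: Hoxa10 had no read in PBS, 2.62 and 2.34 CPM in C40 and 0 and 0.0184 in I60, and Hoxb8 6.78 and 4.99 CPM in C40 and 0.0562 and 0.184 in I60. The difference between I60 and C40 was -3.36, SE 0.25, adjusted p = 4.21e-04 for Hoxb8. In the Sox family Sox2, a factor of stem cells, had 0.158 and 0.266 CPM in PBS and 9.74 and 7.42 in I60 (log2 fold change 3.67, SE 0.25, adjusted p = 8.57e-05) against 0.229 and 0.110 in C40 (log2 difference 3.76, SE 0.25, adjusted p = 2.99e-04). Sox9, a factor of mammary progenitors, fell from 99.00 and 125 to 23.1 and 34.9 CPM (log2 fold change -1.95, SE 0.27, adjusted p = 0.00198).

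Imprinted genes, which are read from 1 parental copy, gave both silenced and switched-on members. Snrpn and Snurf, which share a transcript and have the same values in the table, had 6.63 and 7.77 CPM in PBS, 4.95 and 5.24 in C40 and no read in I60 (at least 259-fold lower). Peg12, in the same imprinted domain of chromosome 7, went the other way, from no read in PBS to 9.21 and 6.81 CPM in C40 and 19.5 and 11.7 in I60. Mest, on chromosome 6, had 26.6 and 16.3 CPM in PBS, 5.80 and 1.53 in C40 and no read in I60. Zfp57, a zinc finger protein that protects imprints in the embryo, was switched on from no read to 7.32 and 10.2 CPM. Over the tested imprinted genes 11.8% were higher and 23.5% lower, against 13.9% and 13.1% over all genes tested. Of 17 tested imprinted genes 2 were higher and 4 lower; 1 rise was called without any 1 of the PBS or I60 libraries, and 2 falls without I60 replicate 2 or PBS replicate 1. DNA methylation and Polycomb enzymes showed less, with 4 of 35 higher and 2 lower, under the background shares, and no call was made in every fit without 1 library. Dnmt3a, a de novo DNA methyltransferase, had 24.7 and 31.5 CPM in PBS and 64.8 and 55.6 in I60 (adjusted p = 0.0105, and 0.0849 without I60 replicate 1, 0.0531 without I60 replicate 2, 0.0954 without PBS replicate 1).

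By chromosome, the median difference over the tested genes ran from -0.28 for chromosome 18 to 0.30 for chromosome 19. The chromosome 19 median lay between 0.30 and 0.33 in the 4 pairs of 1 I60 and 1 PBS library, which share libraries and so are not independent. There, 21.96% of 419 genes were higher and 6.44% lower. Chromosome 15 had a median of 0.23 (0.17 to 0.26 over the pairs). The medians of chromosomes 1, 3, 9, 16 and 18 varied more between pairs, from -0.37 to -0.18, from -0.35 to -0.10, from -0.34 to -0.13, from -0.28 to -0.15 and from -0.38 to -0.15. Their fitted medians were -0.26, -0.26, -0.26, -0.24 and -0.28, and 22.2% of the genes of chromosome 9 were lower. In C40 the median of chromosome 19 was 0.34 and that of chromosome 18 was 0.13.

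**Figure D5:**
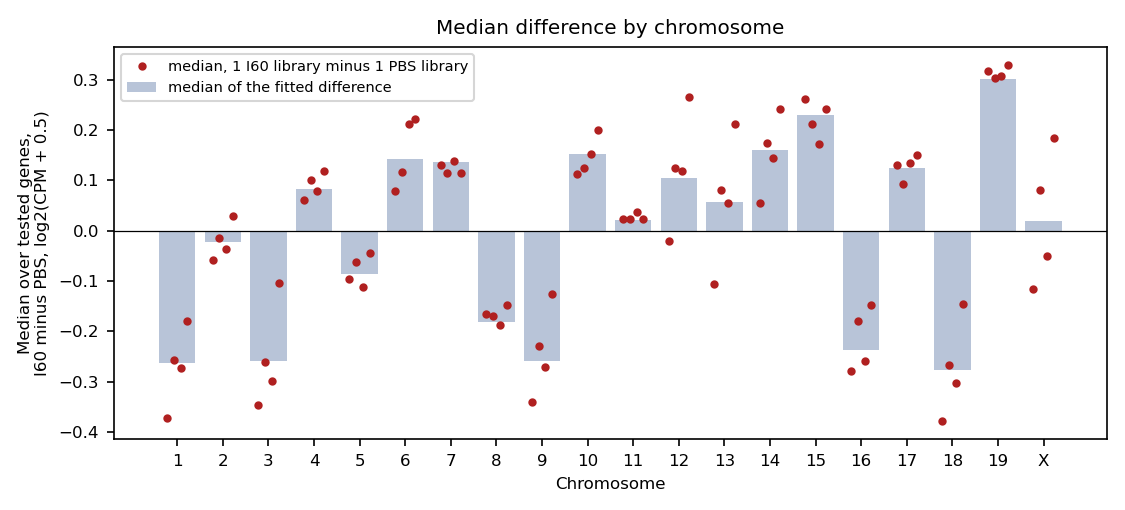
Median difference between I60 and PBS in log2(CPM + 0.5) over the tested genes of each chromosome; bars are the median of the fitted difference and the 4 red dots the medians for each pair of 1 I60 and 1 PBS library. All 4 dots lie above 0.30 for chromosome 19 and below 0 for chromosomes 1, 3, 5, 8, 9, 16 and 18.

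In windows of 25 neighbouring tested genes, 91.9% of medians lay between -0.5 and 0.5. The highest was 3.37, from Pars2 to Orc1 on chromosome 4 (106651069 to 108616030), where 24 of 25 genes were higher and the C40 median was 1.03. The lowest was -1.80, over the clustered protocadherins of chromosome 18 (36952648 to 37841873), where all 25 were lower. Some of these cell adhesion genes share their last exons with others of the same cluster, so not all of the 25 values are separate measurements. The next lowest, -0.93, ran from Phldb1 to Plet1 on chromosome 9 (44686308 to 50505639), with 17 of 25 genes lower, and -0.89 was the median from Syt8 to Ccnd1 on chromosome 7 (142434850 to 144939831), with 15 lower. The last window ends with Ccnd1, which is itself among its 15 lower genes. Whether the neighbours of Ccnd1 on both sides shared its fall was not tested.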

How the data were processed

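RNA of 6 Py2T libraries was depleted of ribosomal RNA and read as single reads, per the labels' protocols, which describe 2 depletion kits without saying which was used. STAR and build mm10 are named in the submitters' processing notes (STAR version, read counter, annotation and strandedness: not given in the sources used here). CPM for 24454 Entrez gene rows make up the table deposited by the authors. Of these IDs 24374 matched RefSeq and 7 more GENCODE symbols, and 73 had no symbol. Every value (100% within 0.01) was a whole multiple of 1 read, so reads were recovered, and edgeR's quasi-likelihood test on them called 3110 genes.

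Tested were genes that reached 1 CPM in 2 or more libraries, with limma 3.58.1 (R 4.3.3, intensity trend, 2-sided, Benjamini-Hochberg adjustment over 11524 genes) on log2(CPM + 0.5), a scale that understates changes of low genes, with all 3 groups in 1 model and 3 residual degrees of freedom; the code was tested on simulated data. Silenced and switched-on genes were ranked by level (the 12 highest each are named, except an item that is not reported here). Named otherwise are the 8 largest rises and falls among calls with at least 5 CPM and no overlap, the 6 largest gains and losses in CPM, up to 4 calls per list and other members where a list is described. The members and the 36 lists were chosen with earlier results of these data known. Fold bounds use a floor of 3 reads over a group, and intervals are exact, at 95%, for counting error only. Alternatives were other pseudocounts, no filter, the 4 PBS and I60 libraries alone, TMM scaling, a replicate block, edgeR 4.0.16, DESeq2 1.42.0 and each library left out. Chromosome medians, windows and neighbours were added after seeing the data.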

Additional observations from a re-analysis of the deposited data

Results flagged for a closer look

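In 28 genes the I60 and C40 lines were called in opposite directions against PBS and differed from each other by limma's test of I60 against C40. Both lines are compared with the same PBS libraries here. Tnfrsf10b, a death receptor for TRAIL, had 85.1 and 79.97 CPM in PBS, 46.9 and 40.7 in C40 and 143 and 127 in I60, and its log2 difference between I60 and C40 was 1.62, SE 0.17, adjusted p = 0.00159. Its rise against PBS was not called without any 1 of the PBS and I60 libraries (adjusted p = 0.130 without I60 replicate 1, 0.0780 without I60 replicate 2, 0.107 without PBS replicate 1, 0.125 without PBS replicate 2). Gsdmd, the pore-forming protein of pyroptosis, had 1.63 and 0.631 CPM in PBS, 10.9 and 7.32 in C40 and 0.0562 and 0 in I60, and its log2 difference between I60 and C40 was -4.16, SE 0.36, adjusted p = 7.43e-04. Its fall against PBS was not called in 3 such fits (adjusted p = 0.0893 without I60 replicate 1, 0.120 without I60 replicate 2, 0.110 without PBS replicate 1).

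Another 3 of the 28 are named after their values were seen. Il18r1, the receptor chain for interleukin 18, had 78.6 and 51.03 CPM in PBS, 248.7 and 139.6 in C40 and 5.45 and 7.17 in I60 (I60 minus C40 -4.79, SE 0.34, adjusted p = 3.55e-04). Sorcs2, a sorting receptor, had 55.6 and 40.7 CPM in PBS, 79.4 and 96.1 in C40 and 5.36 and 5.71 in I60 (I60 minus C40 -3.86, SE 0.23, adjusted p = 2.39e-04). Adgre5, the adhesion receptor CD97, went the other way, at 1.35 and 0.647 CPM in PBS, 0.104 and 0.129 in C40 and 19.5 and 30.2 in I60 (I60 minus C40 5.33, SE 0.33, adjusted p = 2.41e-04).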

How the results depend on the processing

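No direction of a named gene reversed under any of the 8 other alternatives or the 6 fits that left out 1 library. Of 162 genes named by the rule, 155 kept their call under all 8 and 126 in all 6. Over all genes the counts moved by over 1.5 times only when a PBS or I60 library was left out: over the 6 such fits, C40 included, counts ran from 756 to 2120 higher and from 740 to 2070 lower, and without a PBS or I60 library they were at most 940 and 896. The 2 C40 libraries differed from each other more than those of the other groups (SD of the difference 0.623 against 0.363 and 0.379), and without C40 2121 genes were higher and 2066 lower. With a replicate block 1786 were higher and 1708 lower; the labels share numbers but name no shared batch, and the replicate differences correlated at 0.105 for PBS and I60, 0.154 for PBS and C40 and 0.438 for C40 and I60. The block changed no named gene's call. Of the chromosome medians with 1 library left out, 33 moved by more than their spread and 87 did not, and none of chromosomes 1, 3, 9, 15, 16, 18 and 19 changed sign. edgeR called 1626 higher and 1484 lower, and DESeq2 1960 and 1897. With up to 15 reads allowed in the low group, 221 genes were silenced and 212 switched on, and with at least 5 CPM required in the high group 71 and 39. At this depth a gene with 0 reads may still have been present at up to 3 reads. Rows of genes that share exons or near-identical copies remain uncertain, since the counting is not given.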
